A study of Mus musculus with 6 samples.

Results

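The axon guidance ligands and receptors of the classical families were examined in RNA-seq of neural stem cells (NSCs). The members were chosen by name as the Eph receptors and ephrins, the semaphorins with their neuropilin and plexin receptors, the Slits and Robos, and the netrins with the receptors Dcc, Neo1 and Unc5a to Unc5d. This rule uses no measured value. It found 72 of the 52438 rows with values, namely 69 genes and 3 antisense transcripts of Plxna4. The cells were primary NSCs from the mouse cortex, grown attached to Matrigel with the growth factors bFGF and EGF under 21% oxygen. WT cells were compared with Setd5+/- cells, which carry a CRISPR-Cas9 mutation in 1 copy of the gene of the chromatin protein SETD5. The labels list 3 samples of each genotype, and all 6 share the culture conditions.

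Axon guidance cues are secreted or membrane-bound proteins that attract or repel the growing tips of nerve fibres. Secreted class 3 semaphorins mostly bind a neuropilin, which pairs with a plexin that carries the signal into the cell, while membrane-bound semaphorins bind plexins directly. Slits bind Robos, netrins attract through Dcc and neogenin and repel through the Unc5 receptors, and ephrins bind Eph receptor tyrosine kinases on neighbouring cells. In the cortex these genes are used by radial glia and migrating cells as well as by axons, in spacing, adhesion and the choice of route.

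The 3 samples of a genotype differed by no more than the sampling of read pairs would give. The variance of their reads was 1.95 times the mean in WT and 1.92 times in Setd5+/- samples, where single reads would give 1 and pairs with both ends counted would give 2. Of the values of 1 to 10 reads, 75.1% were even. The ratio hardly moved with level, at 1.88 for WT genes under 100 reads and 1.99 in the highest of 3 classes of level. With each pair of reads counted once, the chi-square per degree of freedom was 0.958 to 0.981 for the 6 pairs of samples that share a genotype and 31.7 to 31.9 for the 9 that do not. Each set of 3 was therefore treated as parts of 1 library, so n is 1 per genotype and no difference has a replicate check. The genotype cannot be told apart from the clone, the library, its index or its lane, and the columns of the mutant samples carry the name of a single clone, A3. Reads on genes numbered 9995980 to 10004948 in the WT samples and 7143309 to 7146147 in the Setd5+/- samples. Values are normalized counts, the reads counted on a gene divided by a factor for library size, and 1 read is worth 0.827 to 0.829 in WT and 1.191 to 1.192 in Setd5+/- samples. Log2 fold changes compare the mean of Setd5+/- with that of WT after adding 1 normalized count to both. They carry 95% counting intervals, which describe the sampling of reads in these libraries only. A gene was tested when the mean of its 6 values reached 10 normalized counts, and it was called higher or lower when its level differed at least 2-fold. In bulk RNA, fewer cells of a type and less RNA per cell cannot be told apart.

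Setd5 itself was read first as a check of the labels. Its normalized counts were 2498, 2749 and 2780 in WT, against 2151, 1990 and 2055 in Setd5+/- samples. All Setd5+/- samples lay below all WT samples (log2 fold change −0.37, interval −0.44 to −0.31). The samples did not overlap in 65.3% of all tested genes, and 32.8% had an interval below 0, so this is a weak check. The gene spans chr6:113077365-113153435 in GRCm38, the build also called mm10, to which all gene positions here refer.

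Of the 72 members, 55 passed the filter on low counts. Of these, 16 were at least 2-fold higher in Setd5+/- NSCs (29.1%), beside 10.3% of all 16266 tested genes. A further 7 were at least 2-fold lower (12.7%), beside 6.14% of all tested genes, and 32 stayed within 2-fold. In all, 41.8% of the tested members and 16.4% of all tested genes were past 2-fold. A gene low in 1 genotype can pass the filter only by being high in the other. This held for 7 members, of which 3 were at least 2-fold higher and 2 at least 2-fold lower. Of the 48 members with at least 10 normalized counts in both genotypes, 13 were higher and 5 lower, beside 8.3% and 4.72% of the 15347 such genes. The median log2 fold change was 0.39 over the tested members and −0.02 over all tested genes, and single members ranged from −3.10 for Slit2 to 3.78 for Sema3e. The counting interval lay above 0 in 29 members and below 0 in 11, where the shares over all tested genes were 32.6% and 32.8%. The samples of the genotypes did not overlap in 45 members, beside 65.3% of all tested genes.

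By role, the receptors had 8 higher and 1 lower of 27 tested, with a median of 0.59. The ligands had 8 higher and 6 lower of 28 tested, with a median of 0.07. These counts stand beside 10.3% higher and 6.14% lower of all tested genes. The lower receptor, Epha3, passed the filter only through WT cells, so its direction was bound to the filter. Among ligands, the 5 tested class 3 semaphorins were higher and the 2 tested Slits lower, but Sema3d, Sema3e and Sema3f passed the filter only through Setd5+/- cells and Slit2 only through WT cells, so their direction was bound to the filter. By level, the members were higher more often than lower both above and below 100 normalized counts. Members whose mean reached 100 normalized counts had 9 higher and 2 lower of 31, where 7.59% and 4.09% of all genes at that level were higher and lower. Those under 100 had 7 higher and 5 lower of 24, beside 15.3% and 10.0% of all such genes. Sema4c and Plxna1 lay just inside the 2-fold limit, and Unc5a (log2 fold change 0.95) and Plxnb2 (0.80) just outside it.

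**Figure D1:**
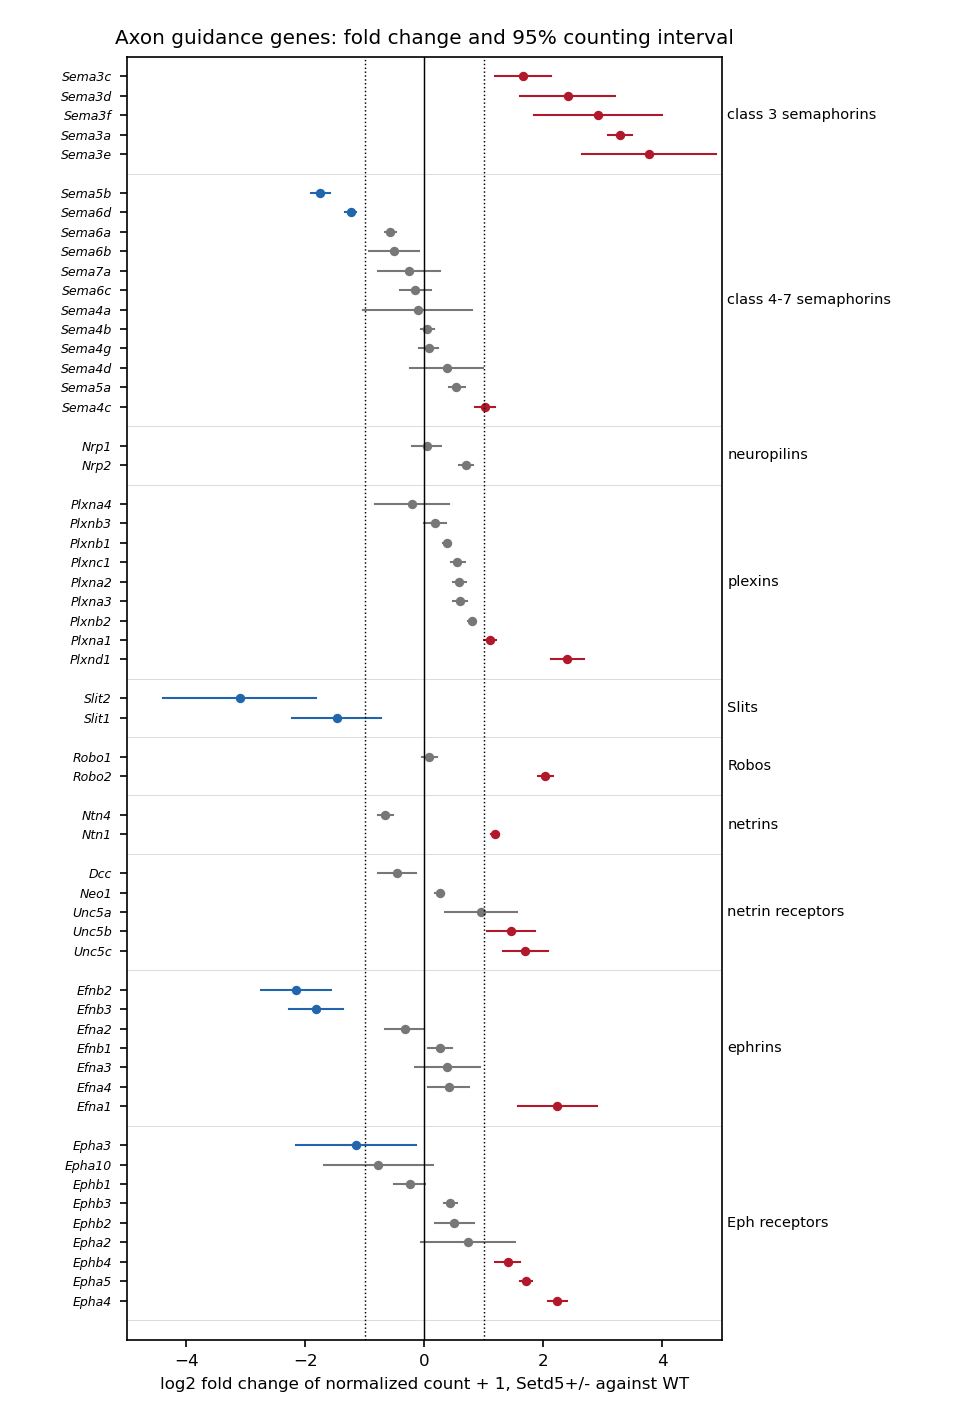
Log2 fold change of normalized count + 1 in Setd5+/- against WT (x axis) for the 55 tested members, grouped by family, with bars for the 95% counting interval and dotted lines at 2-fold. Red marks at least 2-fold higher, blue at least 2-fold lower and grey within 2-fold. The 5 tested class 3 semaphorins all lie right of 2-fold and both tested Slits left of it. Of these, Sema3d, Sema3e and Sema3f passed the filter only through Setd5+/- cells and Slit2 only through WT cells.

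Class 3 semaphorins, the secreted members, were the family whose summed counts differed by the largest fold. Sema3a, a repellent for cortical axons that acts through Nrp1, had 125.2, 126.6 and 113.5 normalized counts in WT and 1130, 1211 and 1260 in Setd5+/- samples. It was 9.86-fold higher in Setd5+/- cells, on a log2 scale by 3.29 (interval 3.09 to 3.49), and its sample values did not overlap. Sema3c, which attracts cortical axons, had 24.9, 24.8 and 26.5 in WT and 73.9, 81 and 92.9 in Setd5+/- samples, 3.25-fold higher (log2 interval 1.19 to 2.14). The other 3 were at or near the bottom of the measured range in WT. Sema3d had 4.98, 4.96 and 9.94 normalized counts in WT and 42.9, 46.4 and 29.8 in Setd5+/- samples (log2 fold change 2.42, interval 1.62 to 3.21).

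Sema3e, a ligand that binds Plxnd1 without a neuropilin, had 0, 0 and 1.66 normalized counts in WT and 14.3, 15.5 and 31 in Setd5+/- samples. This rests on 2 reads in WT against 51 in Setd5+/-, a ratio of 36.7 with an exact 95% counting interval of 6.14 to 1533. Sema3f, which signals mainly through Nrp2, had 0, 1.65 and 4.97 in WT and 26.2, 23.8 and 20.3 in Setd5+/- samples, or 8 against 59 reads. Its ratio was 10.6, with an exact interval of 3.8 to 42.1. In all 5 genes every Setd5+/- sample was above every WT sample. Over all tested genes, the samples of the genotypes did not overlap in 65.3%. Sema3d, Sema3e and Sema3f passed the filter only through Setd5+/- cells, so their direction was bound to it. Sema3b and Sema3g stayed under the filter, with means of 3.31 and 0.552 normalized counts in WT and 1.99 and 1.59 in Setd5+/- cells.

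**Figure D2:**
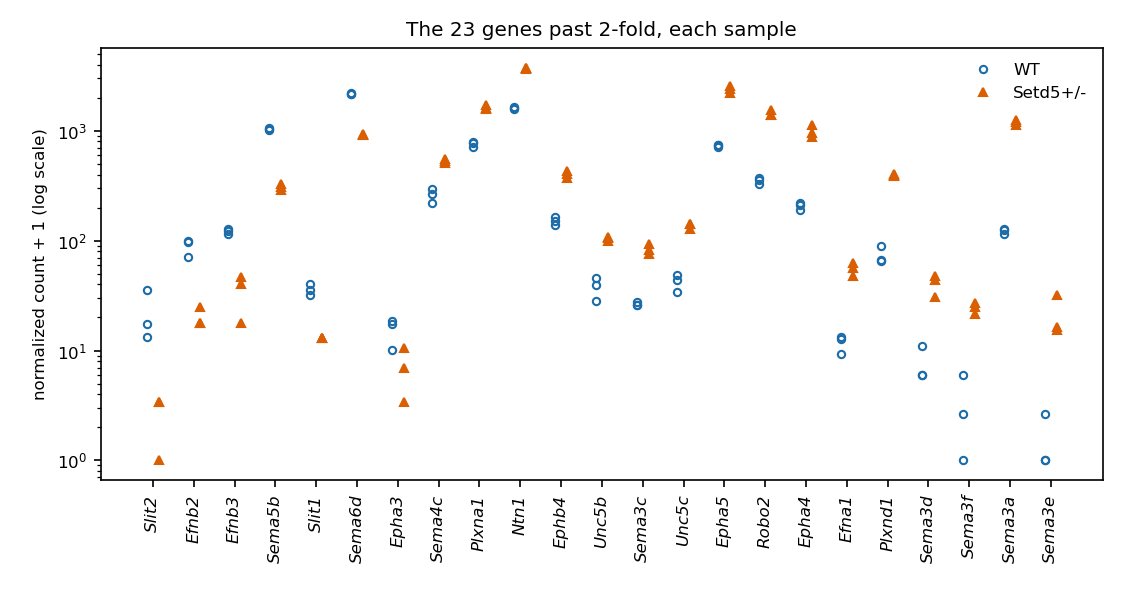
Normalized count + 1 (y axis, log scale) of the 23 members past 2-fold in each WT sample (open circles) and each Setd5+/- sample (triangles), ordered by fold change from Slit2, the lowest, to Sema3e, the highest. The symbols of the genotypes stand apart in every gene except Epha3, where the highest Setd5+/- sample (9.53 normalized counts) lies above the lowest WT sample (9.11).

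Of the 5 higher class 3 genes, 4 lie within 5.35 Mb of chromosome 5 on the same strand. They are Sema3d (chr5:12383385-12588948), Sema3a (chr5:13125414-13602565), Sema3e (chr5:14025276-14256689) and Sema3c (chr5:17574281-17730268), while Sema3f lies on chromosome 9 (chr9:107681500-107710475). The 7 other tested genes in that stretch, taken with 1 Mb on each side, did not move as a block. Their median log2 fold change was −0.17, beside −0.04 for all of chromosome 5. The range was −6.87 to 3.31, with 1 gene higher and 3 lower. These neighbours were chosen for their position, and they are named here after their values were seen. Gm43719, a gene model that lies just past the annotated end of Sema3a, went from 8.56 to 93.72 normalized counts. Its log2 fold change was 3.31, beside 3.29 for Sema3a, and whether it is separate from Sema3a was not tested. Pclo, a scaffold protein of the presynapse, went from 168.14 in WT to 21.05 in Setd5+/- cells. Cacna2d1, a subunit of voltage-gated calcium channels, went from 208.97 to 0.79, and Cd36, a fatty acid receptor, from 628.63 to 306.56.

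**Figure D3:**
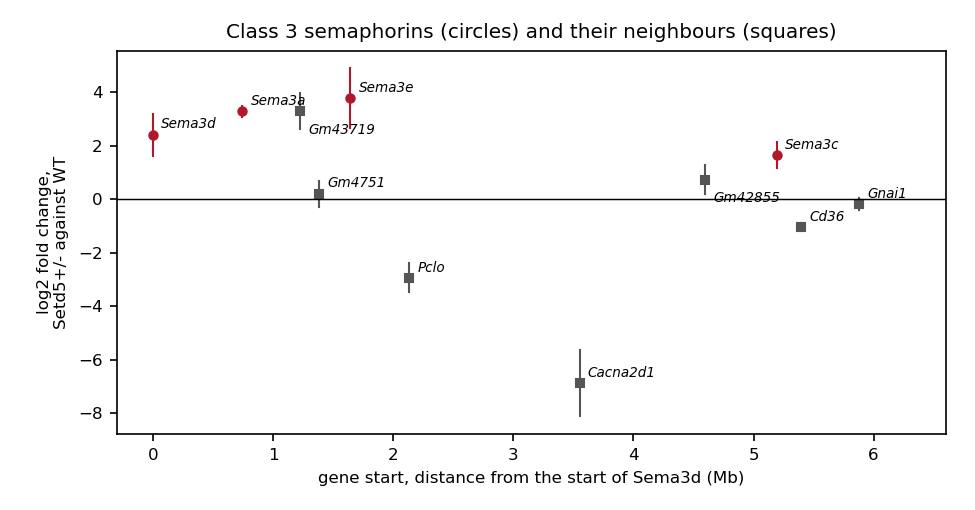
Log2 fold change, Setd5+/- against WT (y axis), of the tested genes around the chromosome 5 semaphorins by the distance of the gene's start from that of Sema3d in Mb (x axis), with 95% counting intervals. Red circles are class 3 semaphorins and grey squares other genes. All 4 semaphorins lie above 0, of which Sema3d and Sema3e passed the filter only through Setd5+/- cells. Of the other genes, Gm43719, Gm4751 and Gm42855 lie above 0, and Pclo, Cacna2d1, Cd36 and Gnai1 below.

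The promoters of the 4 neighbouring semaphorins are shown because these genes were all higher, and that of Slit2 because it lies on the same chromosome and was lower. Sema3d and Sema3e passed the filter only through Setd5+/- cells and Slit2 only through WT cells. The direction of these genes was therefore bound to the filter. Each sequence holds the 250 bases before the start of the RefSeq transcript in GRCm38.p6, on the plus strand. Capitals mark every match to the GC box GGGCGG, the CCAAT box CCAAT, the TATA box TATAAA or the E-box CACGTG on either strand. These letters occur in 32.7%, 33.8%, 12.4% and 6.02% of the 32851 RefSeq promoter windows of the same length. RefSeq starts differ from the annotation used for the positions above, and the windows of Sema3a and Sema3c lie inside the annotated gene, not at its 5′ edge.
Sema3d, chr5:12382916-12383165: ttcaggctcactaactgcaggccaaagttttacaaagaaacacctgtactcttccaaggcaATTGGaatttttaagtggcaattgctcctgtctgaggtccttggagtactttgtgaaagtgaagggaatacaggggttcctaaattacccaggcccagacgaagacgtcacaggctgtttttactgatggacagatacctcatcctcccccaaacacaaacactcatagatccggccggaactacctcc
Sema3a, chr5:13396534-13396783: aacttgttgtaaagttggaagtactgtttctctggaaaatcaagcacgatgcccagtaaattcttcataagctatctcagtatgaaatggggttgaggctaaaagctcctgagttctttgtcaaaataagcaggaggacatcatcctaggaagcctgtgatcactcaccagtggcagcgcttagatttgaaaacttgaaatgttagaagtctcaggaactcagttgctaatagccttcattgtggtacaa
Sema3e, chr5:14025026-14025275: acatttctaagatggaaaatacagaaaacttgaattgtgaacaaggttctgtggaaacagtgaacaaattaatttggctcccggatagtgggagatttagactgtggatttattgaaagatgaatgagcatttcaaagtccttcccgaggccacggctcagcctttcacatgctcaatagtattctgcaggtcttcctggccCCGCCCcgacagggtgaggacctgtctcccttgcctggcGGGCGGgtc
Sema3c, chr5:17574566-17574815: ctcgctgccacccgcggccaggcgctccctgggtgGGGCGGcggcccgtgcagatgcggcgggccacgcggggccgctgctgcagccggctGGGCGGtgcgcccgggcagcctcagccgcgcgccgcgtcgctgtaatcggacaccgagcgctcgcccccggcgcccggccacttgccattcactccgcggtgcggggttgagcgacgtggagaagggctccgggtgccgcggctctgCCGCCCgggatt
Slit2, chr5:47982905-47983154: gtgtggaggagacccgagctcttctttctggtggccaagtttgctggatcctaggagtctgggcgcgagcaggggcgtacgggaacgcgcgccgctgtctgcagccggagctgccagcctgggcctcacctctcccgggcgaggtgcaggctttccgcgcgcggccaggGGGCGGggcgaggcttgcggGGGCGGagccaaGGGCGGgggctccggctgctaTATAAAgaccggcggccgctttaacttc
The 4 semaphorin windows differed among themselves. Sema3c held 3 GC boxes and 39 CG pairs, a number reached by 1.56% of all windows, whereas Sema3a held none of the 4 motifs and 2 CG pairs, which 81.2% of windows reach. Sema3e held 2 GC boxes and 7 CG pairs, and Sema3d held 1 CCAAT box, read on the other strand, and 4 CG pairs. The median over all windows was 6 CG pairs. The Slit2 window held 3 GC boxes, 1 TATA box and 25 CG pairs. No motif was found in all 4 semaphorin windows, since that of Sema3a held none of them. Whether these motifs bear on the levels was not tested.

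The neuropilins stayed within 2-fold. Nrp1, the main binding partner of Sema3a, had 170.0, 182.8 and 159.0 normalized counts in WT and 169.2, 194.1 and 165.6 in Setd5+/- samples. Its samples overlapped, and the interval of its log2 fold change of 0.05 ran from −0.20 to 0.29. Nrp2 had 631.9, 594.0 and 688.2 in WT and 1060, 987.2 and 1079 in Setd5+/- samples (log2 fold change 0.71, interval 0.59 to 0.82). Its samples did not overlap, which held for 65.3% of all tested genes. Nrp2 lies on chromosome 1 (chr1:62703285-62818695), where the median log2 fold change of all 1044 tested genes was 0.53, against −0.04 on the other chromosomes, and Nrp2 stood 0.18 above that median.

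Among the plexins, 8 of the 9 tested lay above 0, 7 of them with an interval above 0, and 2 were past 2-fold. Of all 16266 tested genes, 7953 lay above 0, 32.6% had an interval above 0 and 10.3% were at least 2-fold higher. Plxnd1, the receptor of Sema3e, went furthest, with 64.7, 89.3 and 66.3 normalized counts in WT and 394.5, 402.5 and 384.8 in Setd5+/- samples. It was 5.36-fold higher (log2 fold change 2.41, interval 2.14 to 2.68) and lies at chr6:115954811-115995005. Sema3e and Plxnd1, a ligand and its receptor, were both higher. The direction of Sema3e was bound to the filter, which it passed only through Setd5+/- cells.

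Plxna1, which carries signals of class 3 and class 6 semaphorins, had 782.0, 706.5 and 771.0 normalized counts in WT and 1566, 1612 and 1699 in Setd5+/- samples (2.16-fold, log2 interval 1.01 to 1.21, chr6:89316314-89362620). It shares 970 exon bases with the antisense gene Gm26811, which went from 115.7 to 221.2 normalized counts, and without strand the reads of both cannot be told apart. Plxnb2, the plexin with the highest mean over both genotypes, had 2379, 2429 and 2361 in WT and 4107, 4235 and 4135 in Setd5+/- samples, with a log2 fold change of 0.80 (interval 0.74 to 0.86). Plxna2, Plxna3, Plxnc1 and Plxnb1 were higher by less, with log2 fold changes of 0.59, 0.60, 0.56 and 0.38. Their samples did not overlap, which held for 65.3% of all tested genes. Plxna2 is on chromosome 1 and stood 0.07 above that chromosome's median. The intervals of Plxnb3 (0.18) and Plxna4 (−0.20) included 0, and the 3 antisense transcripts of Plxna4 had no read in any sample.

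The membrane-bound and anchored semaphorins of classes 4 to 7 did not follow class 3. Of 12 tested, 1 was at least 2-fold higher and 2 at least 2-fold lower, beside 10.3% and 6.14% of all tested genes. Their median was −0.13. Sema6d, a ligand of Plxna1 and the semaphorin with the highest level in WT, had 2201, 2146 and 2164 normalized counts in WT and 917.7, 905.1 and 943.5 in Setd5+/- samples. It fell to 0.425 of the WT level (log2 fold change −1.23, interval −1.33 to −1.14, chr2:124089969-124667770). Sema6a, its relative, went the same way by less, from 1643 to 1109 (log2 fold change −0.57, interval −0.66 to −0.48).

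Sema5b, a transmembrane repellent with thrombospondin repeats, had 1026, 1042 and 1058 normalized counts in WT and 290.8, 309.6 and 328.8 in Setd5+/- samples. It fell to 0.297 of the WT level (log2 fold change −1.75, interval −1.90 to −1.59, chr16:35541145-35664732). Its family mate Sema5a went the other way, from 455.8 to 664.0 (log2 fold change 0.54, interval 0.41 to 0.68). The class 5 pair thus differed in opposite directions between these libraries. The samples of neither gene overlapped, which held for 65.3% of all tested genes.

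Sema4c, a ligand of Plxnb2, had 266.2, 291.2 and 220.3 normalized counts in WT and 551.8, 507.3 and 527.7 in Setd5+/- samples (log2 fold change 1.03, interval 0.86 to 1.19, chr1:36548639-36558349). It lies on chromosome 1 and stood 0.50 above that chromosome's median, so it was past 2-fold only without that centring. With the libraries scaled to their total reads or to their upper quartile it was 0.99 and 0.98, and without WT replicate 3 it was 0.92. It also shares 334 exon bases with the antisense gene D430040D24Rik, at 17.4 and 28.2 normalized counts. Sema4a, Sema4b, Sema4d, Sema4g, Sema6c and Sema7a had intervals that included 0, and Sema6b had −0.51 (interval −0.93 to −0.08).

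Both tested Slits were lower, and of their 2 tested Robo receptors 1 was higher. Slit2 passed the filter only through WT cells, so its direction was bound to the filter. Slit1, a secreted repellent, had 30.7, 34.7 and 38.9 normalized counts in WT and 11.9 in each of the Setd5+/- samples, 0.342 of the WT level (log2 interval −2.22 to −0.73, chr19:41600257-41743665). Slit2, its close relative and a guide of forebrain axon tracts, had 34.8, 12.4 and 16.6 in WT and 0, 2.38 and 2.38 in Setd5+/- samples (chr5:47983138-48307733). This was 77 reads in WT against 4 in Setd5+/-, a ratio of 0.0747 with an exact interval of 0.00863 to 0.285. Slit3 had no read in any sample. Summed over the family, Slits went from between 47.2 and 65.5 in WT to between 11.9 and 14.3 in Setd5+/- samples, so both genotypes expressed little of them.

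Robo2, a Slit receptor, had 329.2, 370.6 and 354.4 normalized counts in WT and 1383, 1548 and 1396 in Setd5+/- samples. It was 4.1-fold higher, with a log2 fold change of 2.03 (interval 1.91 to 2.16), at chr16:73891839-74411825. Robo1, the other receptor measured well above the filter, had 621.1, 657.7 and 577.2 in WT and 696.0, 694.3 and 592.0 in Setd5+/- samples, with overlap and an interval of −0.03 to 0.22. The order of the pair therefore turned over. Per length of exon, Robo1 made up 64.1% of the Robo total in WT and 31.9% in Setd5+/-, and Robo2 35.4% and 67.7%. Robo3 and Robo4 had 6 reads or fewer in either genotype.

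Netrins and their receptors contained both directions. Ntn1, the secreted netrin that attracts commissural axons, had 1590, 1638 and 1623 normalized counts in WT and 3647, 3756 and 3712 in Setd5+/- samples (2.29-fold, log2 interval 1.13 to 1.26, chr11:68209364-68400823). Ntn4, a netrin of basement membranes, had 918.8, 963.8 and 937.5 in WT and 591.2, 645.4 and 551.5 in Setd5+/- samples, lower without reaching 2-fold (log2 fold change −0.66). Per length of exon, Ntn1 and Ntn4 shared the netrin total almost evenly in WT, at 50.6% and 49.4%, whereas Ntn1 held 78.5% in Setd5+/- cells.

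Of the netrin receptors, Unc5b and Unc5c, which mediate repulsion, were past 2-fold and higher, and the attractive receptor Dcc was within 2-fold. Unc5c had 33.2, 48 and 43.1 normalized counts in WT and 141.8, 127.4 and 140.6 in Setd5+/- samples (log2 fold change 1.70, interval 1.32 to 2.08, chr3:141465216-141834924). Unc5b had 27.4, 44.7 and 38.1 in WT and 104.9, 106.0 and 97.7 in Setd5+/- samples (1.46, interval 1.05 to 1.87, chr10:60762593-60831581). Neither gene's samples overlapped, as in 65.3% of all tested genes. Unc5a, at 18.8 and 37.3, had a log2 fold change of 0.95 (interval 0.35 to 1.56). Dcc went from 122.0 to 88.9, a log2 fold change of −0.45 (interval −0.77 to −0.13). Neo1, the Dcc relative neogenin and by far the most abundant netrin receptor, had 1967, 1985 and 2026 in WT and 2400, 2347 and 2409 in Setd5+/- samples (0.26, interval 0.19 to 0.33). Unc5d was under the filter, at 3.87 and 0.795.

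The ephrins past 2-fold were 2 of the transmembrane B class, both lower, and 1 of the A class, which was higher. Efnb2, a transmembrane ligand of Ephb4, had 69.7, 99.3 and 96.1 normalized counts in WT and 16.7, 23.8 and 16.7 in Setd5+/- samples, or 0.216 of the WT level (log2 interval −2.74 to −1.57, chr8:8617434-8661242). Efnb3, a midline repellent of corticospinal axons, had 127.7, 122.4 and 115.1 in WT and 39.3, 16.7 and 45.3 in Setd5+/- samples, or 0.277 of the WT level (log2 interval −2.27 to −1.37, chr11:69554092-69560205). Both of these B-class genes were lower without overlap, and 65.3% of all tested genes had no overlap. Efnb1, the ephrin with the highest level, had 239.6, 227.5 and 193.0 in WT and 303.9, 241.7 and 250.2 in Setd5+/- samples, a log2 fold change of 0.27 (interval 0.06 to 0.47).

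Efna1, which is anchored to the membrane by a lipid and binds EphA receptors, had 11.6, 12.4 and 8.28 normalized counts in WT and 46.5, 61.9 and 54.8 in Setd5+/- samples. It was 5.05-fold higher (log2 fold change 2.24, interval 1.57 to 2.90, chr3:89271733-89281142). It was the only ephrin among the 7 tested that was at least 2-fold higher. Efna4 had a log2 fold change of 0.41 (interval 0.07 to 0.75), but it shares 168 exon bases with the antisense gene 4731419I09Rik, which went from 108.0 to 204.5 normalized counts. Efna2 (−0.32) and Efna3 (0.39) had intervals that reached 0, and Efna5 stayed under the filter with 6 and 2 reads.

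The Eph receptors had 3 higher and 1 lower of 9 tested, beside 10.3% and 6.14% of all tested genes, with a median of 0.51. Epha5, the Eph receptor with the most normalized counts, had 739.7, 744.6 and 704.7 in WT and 2225, 2391 and 2580 in Setd5+/- samples (3.29-fold, log2 fold change 1.72, interval 1.62 to 1.81, chr5:84054761-84417382). Epha4, which binds ephrins of both classes, had 212.3, 190.3 and 218.6 in WT and 947.5, 1121 and 885.1 in Setd5+/- samples (4.75-fold, log2 fold change 2.24, interval 2.08 to 2.41, chr1:77367185-77515088). It too lies on chromosome 1, and it stood 1.71 above that chromosome's median. Ephb4, the receptor of Efnb2, had 138.5, 148.9 and 164.8 in WT and 401.6, 431.1 and 374.0 in Setd5+/- samples (2.67-fold, log2 fold change 1.41 with a counting SE of 0.11, chr5:137350109-137378669). Efnb2 was thus lower and Ephb4 higher, both past 2-fold.

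Epha3 was the lower one, at 16.6, 17.4 and 9.11 normalized counts in WT and 9.53, 5.95 and 2.38 in Setd5+/- samples (chr16:63543534-63864175). With 52 against 15 reads its ratio was 0.415, the exact interval of 0.173 to 1.01 included 1, and its samples overlapped. Epha3 passed the filter only through WT cells, so its direction was bound to the filter. Its log2 fold change was −1.14, and it was −0.81 without Setd5+/- replicate 3 and −0.99 without WT replicate 2. Ephb3 and Ephb2 had log2 fold changes of 0.44 and 0.51 with intervals above 0. Epha2 (0.74), Epha10 (−0.77) and Ephb1 (−0.24) had intervals that included 0. Epha7 had 14 reads in WT and none in Setd5+/- samples, under the filter, and Epha6 had no read in any sample.

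Summed over each family, the Setd5+/- samples held more of the receptors. The normalized counts of the Eph receptors went from between 1975 and 2119 in WT to between 4770 and 5185 in Setd5+/- samples, 2.42-fold, while the ephrins went from 654.8 to 597.7 with overlapping samples. The Robos were 2.17-fold higher, the plexins 1.59-fold, the neuropilins 1.51-fold and the netrin receptors 1.24-fold. On the ligand side, class 3 semaphorins were 8.54-fold higher, from 160.4 to 1370, and netrins 1.68-fold higher. Semaphorins of classes 4 to 7 were at 0.717 of the WT total, from 7158 to 5135, and still held more than class 3 in both genotypes.

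**Figure D4:**
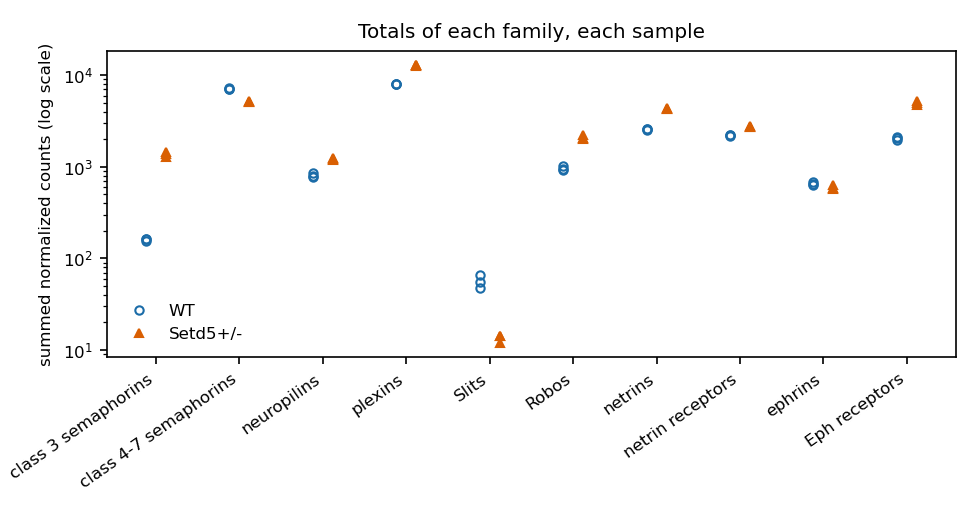
Sum of the normalized counts of all members of each family (y axis, log scale) in each WT sample (open circles) and each Setd5+/- sample (triangles). The class 3 semaphorins and the Eph receptors are higher in all Setd5+/- samples, the Slits and the classes 4 to 7 of semaphorins lower, and the ephrins overlap.

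Levels of different genes were compared as normalized counts per kilobase of exon. In WT cells Plxnb2 ranked highest at 309.5 (95% counting interval 300.6 to 318.7), followed by Plxnb1 at 264.9, Ntn1 at 257.6, Ntn4 at 251.3, Neo1 at 228.6 and Sema6d at 205.5. The intervals of Plxnb1, Ntn1 and Ntn4 overlapped in part, so their order is not settled at this depth. In Setd5+/- cells Ntn1 ranked highest at 590.2 (interval 573.8 to 607.1), above Plxnb2 at 538.7 (524.6 to 553.2), Plxnb1 at 344.0, Neo1 at 273.7 and Plxna1 at 179.6. Plxna1 moved from rank 11 to 5, Epha5 from 20 to 8 and Epha4 from 27 to 11. Sema6d moved from rank 6 to 16 and Sema5b from 9 to 26. Sema3a moved from rank 38 to 18 and then stood at 86.6 normalized counts per kilobase.

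Within the Eph receptors, per length of exon, Ephb3 held 41.4% of the total in WT and 25.9% in Setd5+/- cells. Epha5 went from 18.1% to 27.3% and Epha4 from 10.7% to 23.3%. In Setd5+/- cells, Epha5 stood at 143.3 normalized counts per kilobase (interval 138.4 to 148.4) and Ephb3 at 135.9 (128.3 to 143.8). These intervals overlapped, so which receptor held the largest share in Setd5+/- cells is not settled at this depth. Sema3a made up 60.9% of the class 3 semaphorins in WT and 78.5% in Setd5+/- cells. Sema3c went from 24.7% to 10.5% although its own level was higher, since Sema3a was higher by more.

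**Figure D5:**
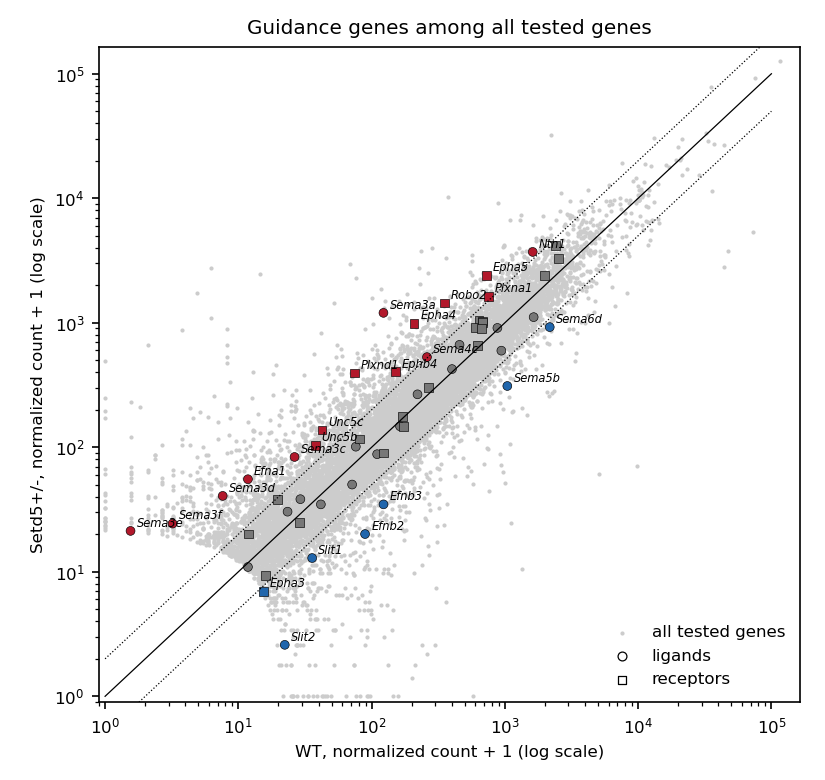
Mean normalized count + 1 in WT (x axis) and Setd5+/- (y axis), both on log scales, for all 16266 tested genes (grey dots) and the tested members (circles for ligands, squares for receptors, red where at least 2-fold higher, blue where at least 2-fold lower, dark grey otherwise). The solid line marks equal levels and the dotted lines 2-fold. Sema3a, Epha4, Epha5, Robo2 and Ntn1 lie above the upper line at high levels, and Sema5b and Sema6d below the lower one.

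The partners of the guidance receptors had a median near that of all genes. They are a list of 75 co-receptors and intracellular effectors, chosen with earlier results of these data known. Of 71 tested, 11 were at least 2-fold higher (15.5%, beside 10.3% of all tested genes) and 3 lower (4.23%, beside 6.14%), with a median of 0.04. The higher ones whose mean reached 100 normalized counts comprised 6 genes of cell-surface or secreted proteins and 4 of intracellular effectors. The first group included the heparan sulfate proteoglycan Gpc1, which binds Slits, with 1939, 1909 and 1976 normalized counts in WT and 7155, 7312 and 7247 in Setd5+/- samples (log2 fold change 1.90, interval 1.84 to 1.95). Gpc1 is on chromosome 1 and was at 1.37 after subtracting that chromosome's median. Sdc3, another such proteoglycan, went from 7554 to 19327 (1.36). Draxin, a secreted ligand of Dcc, had 1144, 1145 and 1017 in WT and 3664, 3520 and 3399 in Setd5+/- samples (1.68, interval 1.60 to 1.75). Nrcam, an adhesion protein that binds neuropilins, went from 1209 to 3662 (1.60), and the related Nfasc, also on chromosome 1, from 81.4 to 197.0 (1.26), which came to 0.73 after that subtraction and was no longer past 2-fold. Rgmb, a ligand of neogenin, went from 196.8 to 458.3 (1.21).

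Of the intracellular effectors, Dpysl3 and Dpysl4, relatives of the semaphorin mediator Crmp2, went from 3212 to 7194 (log2 fold change 1.16) and from 146.6 to 314.1 (1.09). Rnd3, a small GTPase of the plexin pathway, went from 142.2 to 306.6 (interval 0.88 to 1.33), and Mical1, an actin-oxidizing enzyme bound by plexin-A, from 384.0 to 769.6 (1.00). Mical1 sat at the limit, and it was 0.96 with the libraries scaled to their total reads and 0.95 without Setd5+/- replicate 1. Met, a receptor that couples to plexin-B, was below that level but also higher, at 6 reads in WT against 76 in Setd5+/- cells. It is named after its value was seen. The 3 lower ones were Dscam, a netrin-binding adhesion protein, from 824.1 to 308.5 (−1.41, interval −1.57 to −1.26), Srgap3, a GTPase-activating protein that binds Robos, from 891.4 to 388.8 (−1.20), and Chn2, a Rac regulator, from 604.9 to 269.6 (−1.16). The remaining 57 tested genes of the list stayed within 2-fold.

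Markers of the cell types that the culture could hold also moved between the libraries. All 12 neural stem cell markers passed the filter, with sums of 76420 to 76557 normalized counts in WT and 55481 to 56354 in Setd5+/- samples, and 3 of them were at least 2-fold lower. Fabp7 (36015 to 11490) made the difference between the sums. The sums of the other 11 were 40324 to 40591 in WT and 43913 to 44970 in Setd5+/- samples, and they include Vim (9095 to 13822). By gene, 8 of the 12 lay below 0 and 4 above, with a median log2 fold change of −0.18. Hes1 (475.7 to 223.6) and Prom1 (24.6 to 2.38) were also at least 2-fold lower. Of the neuron markers 6 of 11 passed and 5 were lower, among them Dcx (248.5 to 26.2). The neuron sums were 921.7 to 971.3 in WT and 159.7 to 198.9 in Setd5+/- samples, with Neurod1 and Neurod6 at 0 in both. The astrocyte sums were 8114 to 8231 and 10201 to 10227, with 3 of 6 markers higher and 1 lower. Gfap went from 17.1 to 263.3 and Aldh1l1 from 380.4 to 147.3. The oligodendrocyte lineage sums were 40997 to 41788 and 23688 to 24533, with 2 of 7 tested markers lower, and Sox10 went from 298.2 to 1.59. No mesenchymal marker of 8 passed the filter, and the endothelial and microglial lists had 1 of 5 each, with Cx3cr1, Ptprc and Tyrobp at 0. The part of these shifts in the guidance genes was not tested, nor was that of chromosome 1, where 4 members lie.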

How the data were processed

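RNA-seq of NSCs of 2 genotypes at 21% oxygen, 3 samples each by the labels, was analysed. The authors prepared libraries from total RNA with a TruSeq v2 kit, trimmed reads with Trimmomatic, aligned them with Bowtie2 to mm10 and used DESeq2. The version of each tool, the program that counted reads and its use of strand are not given in the sources used here. The authors deposited counts normalized by a size factor per sample, in 6 columns of values, all of which were used. The fold changes and p-values of the authors' own comparison in the same table were not used.

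Many deposited values had lost their decimal point. The point was put back at the only place that gave whole reads, or, for 1116 genes (6 of them members), at the place that met the deposited mean. The means of all 52438 genes with values were then met. The procedure recovered 100% of 314628 values in simulated data. Of 53110 rows, 672 held no values, and 26797 genes had a read.

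Since the 3 samples of a genotype were treated as parts of 1 library, no p-value is given for genes. Fold changes used means over the 3 samples with a pseudocount of 1 normalized count, a mean of at least 10 and a limit of 2-fold. Intervals took the variance as 1.93 times the mean of the reads, the ratio found within genotypes. Under 20 reads in a library, an exact Clopper-Pearson interval on read pairs was used. Intervals cover counting error only. limma 3.58.1 in R 4.3.3, with and without a replicate block, was run as an alternative. The replicate numbers did not pair the samples (correlations of deviations 0.005, 0.002 and −0.007).

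Gene positions and exon lengths came from GENCODE M21, in which 72 members were matched, and promoters from RefSeq, which held 59 members. Genes were named when past 2-fold or highest in their family, and effectors when past 2-fold with a mean of at least 100. The members and lists were chosen with earlier results of these data known. Alternatives covered the pseudocount, filter, scaling, fold limit, left-out samples and chromosome 1.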

Additional observations from a re-analysis of the deposited data

How the results depend on the processing

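Of the 451 values that 41 named genes took under alternative settings, 442 stayed inside the counting interval. No named gene past 2-fold changed sign. Leaving out a sample removed only part of a library, so these settings give no check across libraries. Of the 23 members past 2-fold, Sema4c and Epha3 fell under it in some setting, and so did Nfasc and Mical1 among the effectors. The members at least 2-fold lower, 7 as reported, were 4 when the filter was raised to 50 normalized counts and 12 with no filter, where 8.96% of 26797 genes were lower. Leaving out each sample gave 6 to 8. The members at least 2-fold higher, 16 as reported, lay between 12 and 17 in all settings that kept the 2-fold limit, and between 15 and 17 without each sample. The median of the members, 0.39, was 0.27 with no filter and between 0.33 and 0.51 when each sample was left out, the last without WT replicate 3.

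Of the effectors and co-receptors, 19 were higher and 13 lower at 1.5-fold, where 19.7% and 15.5% of all tested genes were, 6 were higher without the genes settled by the deposited mean, and 5 were lower with scaling to the upper quartile. Without each sample, 10 to 12 were higher and 3 to 4 lower. Their median was 0.00 with scaling to total reads, −0.01 with scaling to the upper quartile, without chromosome 1 or without the settled genes, and 0.00 to 0.05 when each sample was left out. Scaling to total reads or the upper quartile moved the median of all tested genes to −0.06.

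Adding limma's Benjamini-Hochberg adjusted p under 0.05 kept 16 members higher and 7 lower, with and without the replicate block, and 11 effectors higher and 3 lower in both. By that test alone 40 members and 9963 genes passed without the block, and 40 members and 9946 genes with it. These tests compare the reads of 2 libraries, not genotypes, since the values of a genotype were treated as parts of 1 library. Depth limits the genes under the filter, where 12 members had at least 1 read and 5 had none.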
